A study of Caenorhabditis elegans with 2 samples.

Results

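Of 115573 peaks in the ranked list that the authors deposited for both replicates together, 6145 (5.32%) lay in repeated sequence of the Caenorhabditis elegans genome. Each ranked interval of the ce11 assembly was cut into overlapping words of 30 bases, and a peak was counted as lying in repeated sequence when at least 50% of its words had more than 1 copy in the genome, counting both strands. The definition uses the sequence of the interval only and none of its signal values, although it was set with earlier results of these data known. The other 109428 ranked peaks of the same list served for comparison. The list comes from chromatin immunoprecipitation with sequencing (ChIP-seq), in which chromatin is sheared by sonication, precipitated with an antibody and sequenced to find where a tagged protein lies on the genome. The worms were whole young adults of strain OP415, 64 hours old, grown from L1 larvae that were starved after bleaching to bring them to one stage. They carried the integrated fosmid transgene wgIs415, which holds nhr-120 fused to TY1, EGFP and 3xFLAG tags (fosmid clone 91C03), with unc-119(+) as its marker in an unc-119(tm4063) background. The series has 1 group with 2 biological replicates, so no contrast between conditions and no test between samples can be made, and every share below is a description of these lists. The label's description gives an antibody against GFP, while its antibody field names nhr-120. A possible control that the labels name was not analysed here. The labels give no change to the worm's own nhr-120 gene, so the tagged copy is described here as an added one.

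NHR-120 is a nuclear hormone receptor, a transcription factor with a zinc-finger DNA-binding domain, and the family has many more genes in nematodes than in vertebrates or insects. Repeated sequence in C. elegans comprises tandem arrays, in which a unit follows itself head to tail, and dispersed copies of transposons and gene families, and it is known to be denser on the arms of the autosomes than in their centres. In a genome assembly a tandem array may be given with fewer copies than the animal carries, and a short read from a repeat can be placed at more than one site. How such reads were placed in these libraries is not stated. The lists hold no counts, so the depth behind each peak is unknown.

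Several of the strongest of these peaks lay on short units in tandem, and a few of their sequences are shown here so that the repeats behind the peaks named below can be seen. All are from the RefSeq WBcel235 assembly, which is ce11, on the plus strand, 5′ to 3′, and where a stretch is shorter than its peak the rest of the peak is not shown. In the first 6 lines successive copies of the unit alternate between capitals and lower case, and bases outside a copy are in lower case. In the last 3 lines capitals mark the bases that lie in a word occurring more than once in the genome. The first 5 lines and the 2 after the sixth belong to peaks absent from the authors' main thresholded list. The sixth and the last belong to peaks that are in it.
chrIV:10945787-10945989 (45-base unit): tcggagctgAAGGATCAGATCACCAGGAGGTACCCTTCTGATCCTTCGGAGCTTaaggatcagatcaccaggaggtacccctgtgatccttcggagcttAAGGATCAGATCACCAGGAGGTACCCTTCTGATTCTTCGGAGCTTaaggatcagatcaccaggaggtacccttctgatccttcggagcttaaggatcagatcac
chrIV:11070895-11071158 (9-base unit): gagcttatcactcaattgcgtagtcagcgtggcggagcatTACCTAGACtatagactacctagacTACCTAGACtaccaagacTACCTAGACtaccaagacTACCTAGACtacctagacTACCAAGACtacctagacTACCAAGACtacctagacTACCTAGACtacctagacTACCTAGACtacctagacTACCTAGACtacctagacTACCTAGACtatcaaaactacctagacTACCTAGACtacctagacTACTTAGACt
chrV:12509990-12510253 (9-base unit): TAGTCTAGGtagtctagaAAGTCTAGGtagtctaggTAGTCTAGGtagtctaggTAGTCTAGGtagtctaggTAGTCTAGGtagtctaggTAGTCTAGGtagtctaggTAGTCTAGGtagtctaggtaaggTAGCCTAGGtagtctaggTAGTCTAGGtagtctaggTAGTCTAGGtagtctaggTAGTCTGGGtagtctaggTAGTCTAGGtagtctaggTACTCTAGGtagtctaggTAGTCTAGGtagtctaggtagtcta
chrII:8292414-8292677 (79-base unit): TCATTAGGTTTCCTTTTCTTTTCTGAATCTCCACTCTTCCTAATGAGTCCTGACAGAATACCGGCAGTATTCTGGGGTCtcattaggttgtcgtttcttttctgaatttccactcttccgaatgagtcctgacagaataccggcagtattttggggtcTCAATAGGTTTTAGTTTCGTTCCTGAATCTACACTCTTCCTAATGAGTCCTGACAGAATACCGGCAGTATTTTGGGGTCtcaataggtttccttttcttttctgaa
chrIV:12638222-12638485 (96-base unit): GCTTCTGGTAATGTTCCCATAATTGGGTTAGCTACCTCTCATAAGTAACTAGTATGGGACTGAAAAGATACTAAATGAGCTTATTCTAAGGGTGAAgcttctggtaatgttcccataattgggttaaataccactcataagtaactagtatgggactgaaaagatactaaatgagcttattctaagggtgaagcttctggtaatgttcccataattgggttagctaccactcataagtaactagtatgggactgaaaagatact
chrX:17442631-17442894 (45-base unit): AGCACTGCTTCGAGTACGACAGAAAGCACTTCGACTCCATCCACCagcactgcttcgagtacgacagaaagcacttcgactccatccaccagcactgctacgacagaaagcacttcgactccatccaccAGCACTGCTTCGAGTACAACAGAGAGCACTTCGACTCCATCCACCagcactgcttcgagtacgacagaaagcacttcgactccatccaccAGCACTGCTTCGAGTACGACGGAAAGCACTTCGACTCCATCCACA
chrV:5284153-5284218: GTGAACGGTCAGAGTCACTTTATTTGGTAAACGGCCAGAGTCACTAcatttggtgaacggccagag
chrIV:3367022-3367087: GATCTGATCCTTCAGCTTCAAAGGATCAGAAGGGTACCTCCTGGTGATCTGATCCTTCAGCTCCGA
chrIV:3313362-3313456: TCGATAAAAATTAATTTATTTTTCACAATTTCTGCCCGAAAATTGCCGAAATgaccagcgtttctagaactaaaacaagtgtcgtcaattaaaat

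The 9-base units of the arrays at chrIV:11070895 and chrV:12509990 were the same word, with 0 mismatches once one was read on the other strand and from another starting base. The stretch on chromosome IV held 23 copies with at most 15% of bases changed, 18 of them exact, and that on chromosome V held 28, of which 23 were exact. The stretch at chrIV:10945787 held 4 copies of its 45-base unit, and its peak shared at least 10 words of 30 bases with the peak at chrIV:3366898, on the same chromosome, a stretch of which is shown above. The 2 arrays with 45-base units, at chrIV:10945787 and chrX:17442631, were different sequences, with at best 27 mismatches over the 45 bases.

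The highest signals of the whole ranked list were in repeated sequence. The authors' main thresholded list held 610 peaks, with a highest signal of 284. The 12 ranked peaks with a signal above that value (0.0104% of all ranked peaks) were all in repeated sequence, and none of the 12 overlapped a peak of the main thresholded list. A peak above the maximum cannot itself be in that list, so its own absence follows from how the 12 were picked. Only an overlap with a weaker peak of that list was open. Peaks in repeated sequence made up 23 of the top 25 ranked peaks, 53 of the top 100 and 147 of the top 500, against 5.32% of the whole list. A high signal was not general among them: their median signal was 20.4, against 23.0 for the other ranked peaks. The sets parted at the top, where the 99th percentile of signal was 107 in repeated sequence and 62.8 in the others. Signals over 100 and up to the maximum of the main list were held by 0.993% of peaks in repeated sequence (61 peaks) and by 0.0740% of the others (81 peaks). Signal is the authors' own peak value, and its scale is not stated.

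**Figure D1:**
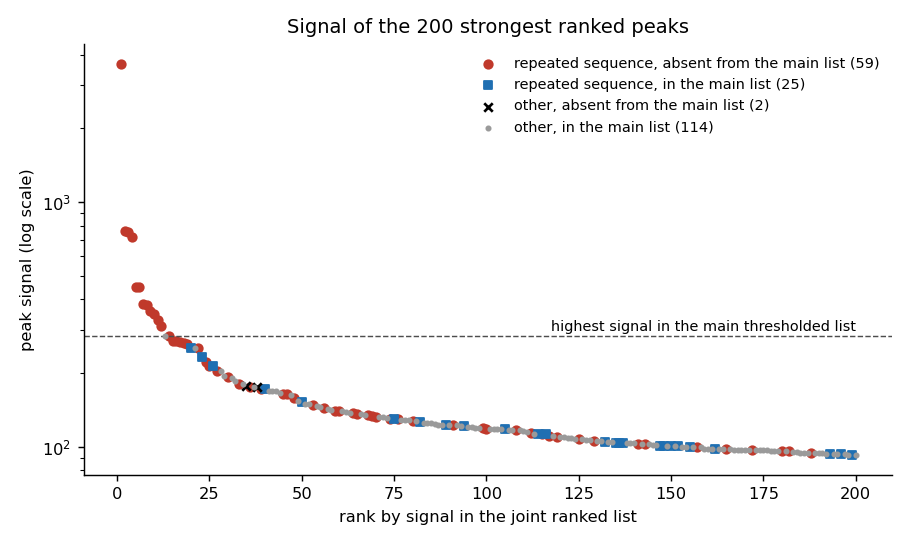
Signal (log scale) against rank for the 200 strongest peaks of the joint ranked list. Red circles and blue squares are peaks in repeated sequence, absent from the main thresholded list (59) or in it (25). Black crosses and grey dots are other peaks, absent (2) or present (114). The dashed line marks the highest signal of the main thresholded list, 284, and the 12 points above it are all red.

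The strongest peak of all, at chrX:15810952-15811191, had a signal of 3680, against 762 for the next. Its signal was 1872 in the own ranked list of replicate 1 and 1979 in that of replicate 2, rank 1 in both. It lay on a tandem array with a period of 26 bases (92.1% identity of the interval with itself shifted by 1 period), and its words had a median of 34 copies in the assembly. The summit was 859 bases from the start of WBGene00044155, a pseudogene, and in no gene. A second peak with a 26-base period, which shared words with the first, at chrX:15808126-15808263, had a joint signal of 717, with 400 in replicate 1 and 373 in replicate 2. The 9 other ranked peaks within 5 kb of the strongest one, outside repeated sequence, had signals of 5.62 to 44.0. All 9 were thus far below these 2 peaks. The cluster held 3 peaks in repeated sequence, and the remaining one was weak as well, below the signal of 92.3 at rank 200.

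A run of 4 peaks over 1.98 kb of chromosome V reached the next rank. The strongest, at chrV:5284100-5284266, had a joint signal of 762, with 368 in replicate 1 and 464 in replicate 2. Beside it, chrV:5284692-5284955 had a joint signal of 452, with 217 in replicate 1 and 308 in replicate 2. Their summits were 3208 and 2549 bases from the start of Y49G5A.1, a protein-coding gene, and in no gene, and all 4 peaks were absent from the main thresholded list. The interval at chrV:5284100 matched itself best at a shift of 78 bases (94.4% identity), with at most 28 copies of a word. That at chrV:5284692 did so at a shift of 26 bases (78.6% identity), with up to 101. The best shift can be a multiple of a shorter unit, so shifts of 78 and 26 bases need not mean different repeats. The other ranked peaks within 5 kb of chrV:5284100, outside repeated sequence, had signals of 17.7 to 40.5.

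No tandem structure was found in the peak at chrX:293347-293462, with a highest self-identity of 37.7% at the shifts tested. Only shifts well short of the 116 bases of the interval were tested, so a longer unit was not tested. The words of this peak had a median of 14 copies and at most 24. Of its repeated words, 100% had another copy within 10 kb. Its joint signal was 754, with 442 in replicate 1 and 323 in replicate 2, and its nearest start was that of R57.2, a protein-coding gene, 3793 bases away. It was the 1 peak with an IDR of at most 0.01 in a cluster of 29 peaks in repeated sequence near the left end of X, where the median signal was 21.5. The peak at chrIV:3366898-3367161, on 45-base units, had a joint signal of 452, with 251 in replicate 1 and 205 in replicate 2. Its summit was 2167 bases from the start of vha-19, which encodes a subunit of the vacuolar proton pump. The peak at chrIV:10945726-10945989, with related units, had a joint signal of 382, with 191 in replicate 1 and 204 in replicate 2, and lay 3039 bases from the start of Y69E1A.1.

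Replicates were less alike at one of the other 5 peaks above the maximum. The peak at chrX:11785690-11785953 had a joint signal of 380, with 276 in replicate 1 (rank 5) and 110 in replicate 2 (rank 29). The peak at chrI:10947435-10947698 had a joint signal of 358, with 197 in replicate 1 and 133 in replicate 2, and chrIV:14779917-14780180 had 349, with 168 in replicate 1 and 204 in replicate 2. Their nearest starts were those of the non-coding RNA genes Y95D11A.4 and Y47G6A.34, whose roles are not described here. The peak at chrIII:1299829-1300092, nearest to the antisense RNA gene anr-53, had a joint signal of 329, with 204 in replicate 1 and 148 in replicate 2. The peak at chrII:14337704-14337967, nearest to ddl-3, had a joint signal of 312, with 147 in replicate 1 and 174 in replicate 2, on a unit of 27 bases whose words had up to 356 copies. In 6 of the 12, replicate 1 was the higher, and in all 12 every repeated word had another copy within 10 kb. No summit of the 12 was inside an annotated gene.

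The next 3 peaks in repeated sequence were under the maximum of the main list and also absent from it. The peak at chrIV:11070895-11071158, on the 9-base unit shown above, had a joint signal of 284.2, with 160 in replicate 1 and 124 in replicate 2. The peak at chrII:8292414-8292677 had 270 in the joint list, with 161 in replicate 1 and 118 in replicate 2, and chrIV:12638222-12638485 had 269, with 147 in replicate 1 and 128 in replicate 2. The last of these, near C26H9A.3, stood on its own with no other peak in repeated sequence within 10 kb, and its 96-base unit had at most 6 copies of any word. The other array of the 9-base unit, at chrV:12509990-12510253, had a joint signal of 149 and was absent as well.

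The global irreproducible discovery rate (IDR) that the authors deposited scores whether a peak keeps its rank from one list to another, with low values for peaks that do. It was at most 0.01 for 170 of the 6145 peaks in repeated sequence (2.77%, 95% Wilson interval 2.38 to 3.21%) and for 0.612% of all ranked peaks. Among the others it was 0.491% (537 of 109428, interval 0.451 to 0.534%). The intervals cover the counting error of peaks only, and neighbouring peaks are not independent. Which lists were compared to give this IDR is not stated. All 610 peaks of the main thresholded list had the same interval among the 707 ranked peaks past this limit, so the main list was these 707 less 97 peaks. Of these 97 absent peaks (13.7% of the 707), 91 were in repeated sequence and 6 were not. Of the peaks past the limit, 53.5% in repeated sequence and 1.12% of the others were thus absent. In all, 82 peaks in repeated sequence overlapped the main list (1.33%), 79 of them with the same interval, against 0.546% of all ranked peaks.

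Both the share past the limit and the share absent were higher where more of the interval was repeated. The share of peaks past the IDR limit was 0.366% where no word was repeated, 1.50% at 25 to 50% of words, 1.76% at 50 to 75%, 3.48% at 75 to 100% and 6.99% where every word was repeated. Of those past the limit, 0.308% were absent from the main list where no word was repeated and 3.95% at 25 to 50% of words. Above the 50% limit the absent share was 25% at 50 to 75% of words, 61.3% at 75 to 100% and 90% (27 of 30 peaks) where every word was repeated. The median signal was 15.3 where every word was repeated, against 22.8 where none was. The 2 peaks just inside the 50% limit were chrII:10033547-10033810 in let-268, a procollagen lysyl hydroxylase gene, with a signal of 80.8, and chrIV:9764683-9764946 near ssp-36, with 64.5. The 2 just outside it were chrX:351441-351704 near C04E7.7, with 99.7, and chrX:10330231-10330494 near acl-5, with 64.7.

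**Figure D2:**
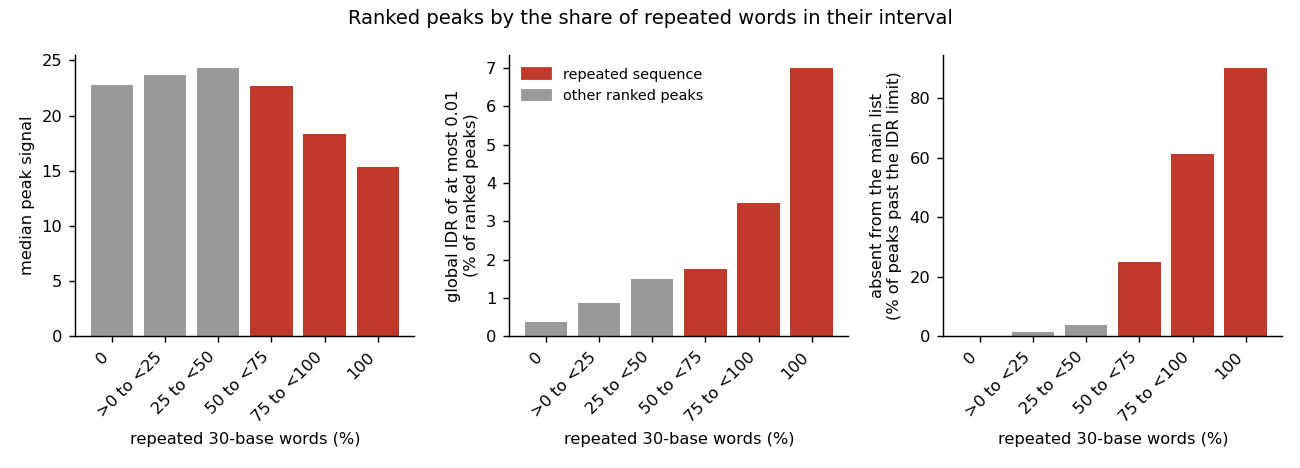
Ranked peaks grouped by the percentage of their 30-base words that are repeated in ce11 (x axis): median signal (left), percentage with a global IDR of at most 0.01 (middle) and, of these, percentage absent from the main thresholded list (right). Red bars are peaks in repeated sequence and grey bars other ranked peaks. The median signal is 15.3 in the group with every word repeated, where 6.99% pass the IDR limit and 90% of those are absent.

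All absent peaks in repeated sequence had copies of their words nearby. A peak was called local when at least 50% of its repeated words had another copy within 10 kb, and dispersed otherwise. Of the 6145 peaks, 2565 were local and 3580 dispersed. Among the local ones 126 (4.91%) passed the IDR limit, of which 91 were absent from the main list and 35 were in it. Among the dispersed ones 44 (1.23%) passed the limit and 0 were absent, with a highest signal of 254. Tandem structure, taken as at least 80% identity of the interval with itself at some shift, was found in 767 peaks in repeated sequence (12.5%) and in 0.101% of the others. Of these 767, 81 (10.6%) passed the limit and 64 were absent. Their periods at IDR of at most 0.01 ranged over 9 to 125 bases, with a median of 43. The commonest were 27 bases (11 peaks, all absent), 26 bases (7, all absent) and 25 bases (6, of which 4 were absent). Each period is the shift of highest identity and can be a multiple of a shorter unit. A tandem interval with exact copies meets the definition by construction, so the share among the others is no comparison. The share past the limit was 1.60% at a median of 2 to 5 copies of a peak's words, 3.79% over 5 to 20, 6.29% over 20 to 100 and 13.8% (13 of 94 peaks) over 100.

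**Figure D3:**
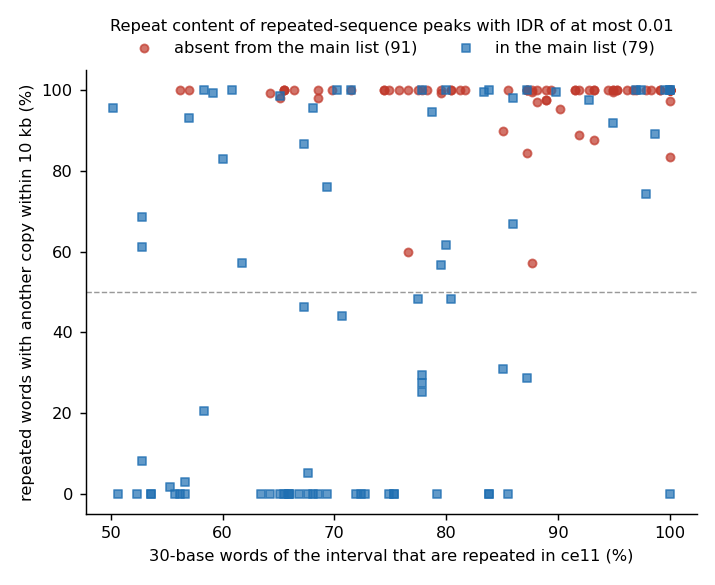
The 170 peaks in repeated sequence with a global IDR of at most 0.01, by the percentage of their 30-base words that are repeated (x axis) and the percentage of these with another copy within 10 kb (y axis). Red circles are the 91 peaks absent from the main thresholded list and blue squares the 79 in it. All red circles lie above the dashed line at 50%, and 44 blue squares lie below it.

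Sequence was shared both between nearby and between distant peaks. When 2 of the 170 peaks were linked by at least 10 shared words of 30 bases, 123 fell into 33 groups of at least 2. The limit counts distinct words, and an exact array holds only as many of them as its unit has bases. Arrays of very short units can thus fall short of 10. Those at chrIV:11070895 and chrV:12509990, which share their 9-base unit, were in no group, so peaks in no group may still share sequence. Of the 238 links, 141 joined different chromosomes, while 20 of the 33 groups lay on 1 chromosome. Some linked peaks overlapped, among them chrI:10417132-10417395 and chrI:10417332-10417595, and so share words by construction. Of the 33 groups, 16 had absent peaks only, 14 present peaks only and 3 had both. The largest group had 16 peaks at 11 loci on all 6 chromosomes, mostly with a 27-base unit, and words of up to 356 copies. In this group 15 were absent and 1 was present, and signals ranged over 68.6 to 312, with the highest at chrII:14337704 near ddl-3. The next group had 10 peaks at 7 loci on 4 chromosomes, all present, with signals of 12.3 to 122 and the highest at chrX:2058579-2058842. Another group had 8 peaks at 2 loci, on chromosomes I and X, all absent, with signals of 91.9 to 358. A group of 4 peaks that included those near vha-19 and Y69E1A.1 had 3 absent peaks and 1 present, and its highest signal was 452.

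The peaks in repeated sequence that are in the main list had lower signals. The 79 had a median signal of 82.8 and a highest of 254, against a median of 114 for the 91 absent ones. The absent ones include the 12 above the maximum of the main list, a range that no peak of that list can reach. The lowest signals were 7.61 in the present and 26.8 in the absent. Both of these lowest peaks overlapped a stronger peak past the limit, of 70.8 and 83.0 respectively, with the same replicate values. The strongest present peak was chrI:4769571-4769692 with 254 in the joint list, 107 in replicate 1 and 144 in replicate 2. Its words had a median of 3 copies, none of them within 10 kb, and its nearest start was that of the long non-coding RNA gene M04F3.7. The next, chrIV:4725563-4725674, had 232, with 108 in replicate 1 and 122 in replicate 2, and shared words with the first. The peak at chrIV:1831250-1831513 had 172, with 89.7 in replicate 1 and 95.7 in replicate 2, and lay inside cmk-1, a calcium/calmodulin-dependent kinase gene. The array at chrX:17442631-17442894, whose sequence is shown above, had 152, with 69.1 in replicate 1 and 83.2 in replicate 2. The peak at chrIV:3313357-3313620, near the bZIP transcription factor gene zip-11, had 121, with 56.8 in replicate 1 and 68.1 in replicate 2. The other 5 of the 10 strongest were chrI:10462616-10462879 near the pseudogene WBGene00013722 with 213, chrI:1937298-1937561 in Y51F10.4 with 130, and chrX:1375189-1375452 near the F-box gene fbxa-190 with 127. They were followed by chrX:2058579-2058842 near Y102A11A.11 with 122 and chrIV:13922351-13922614 near the piRNA gene 21ur-1671 with 118. In each of the 10 replicate 2 was the higher.

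In the lists made from 1 replicate's alignment each, most absent peaks were again in repeated sequence. Of the 170 peaks past the IDR limit, 163 overlapped a peak in the own ranked list of both replicates, and the 91 absent ones did so in 88 cases. Over all peaks in repeated sequence 22.7% were in both own ranked lists and 39.2% in neither, against 26.2% and 28.4% of the others. Peaks in repeated sequence were 11 of the top 12 in replicate 1 and 11 of the top 12 in replicate 2. Above the maximum of its own thresholded list, replicate 1 had 19 ranked peaks, 18 of them in repeated sequence. Replicate 2 had 11 such peaks, 10 of them in repeated sequence. In replicate 1, 154 own ranked peaks passed the limit and 89 were in its thresholded list, and 61 of the 65 absent were in repeated sequence. In replicate 2, 145 passed and 96 were in its thresholded list, and 48 of the 49 absent were in repeated sequence. None of the 91 absent peaks overlapped the thresholded list of either replicate, while 10 of the 79 present ones overlapped that of replicate 1 and 18 that of replicate 2. The joint list holds the same libraries, so these are not independent samples.

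**Figure D4:**
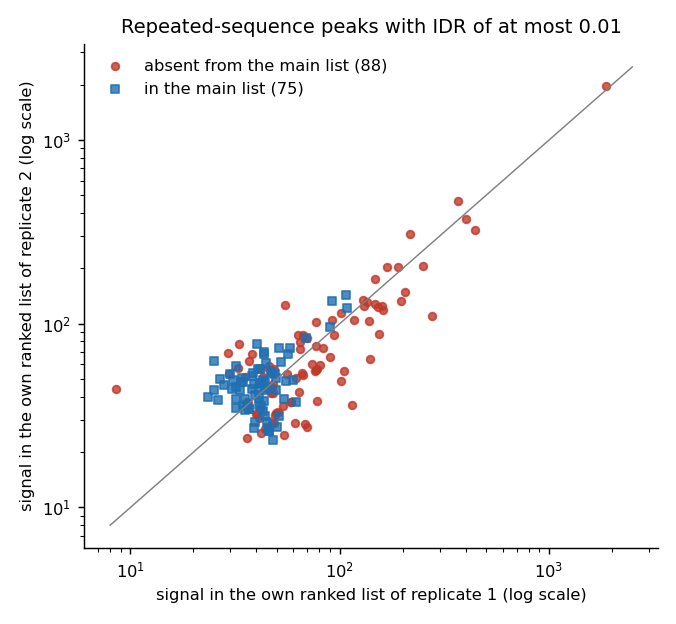
Signal in the own ranked list of replicate 2 against that of replicate 1 (both log scale) for the peaks in repeated sequence with a global IDR of at most 0.01 and a peak in both own lists. Red circles are 88 peaks absent from the main thresholded list, blue squares 75 peaks in it, and the line marks equal values. The peak at the top right has 1872 in replicate 1 and 1979 in replicate 2.

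The balance of the replicates differed in direction between the absent and the present peaks. Replicate 1 was the higher in 57 of the 88 absent peaks found in both own lists, with a median ratio of replicate 1 to replicate 2 of 1.18. It was the higher in 26 of the 75 present ones, with a median ratio of 0.879, and in 219 of the 527 other peaks past the limit, with a median ratio of 0.922. The signals of the replicates differed by more than 2-fold in 13 of the 88 absent, 2 of the 75 present and 26 of the 527 other peaks. Where peaks overlap, the same replicate values can be counted for each of them. With 1 group these ratios have no test.

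Peaks in repeated sequence lay closer to the chromosome ends, with a share on the arms close to that of the repeated sequence itself. On the arms, taken as the first and last of 3 equal parts of each chromosome, were 79.5% of them, against 67.9% of the other ranked peaks and 80.5% of all repeated words of the genome. The share was highest on chromosome I, with 84.1%, and lowest on V, with 75.2%. Among those past the IDR limit 68.8% of the 170 were on the arms, against 69.5% of the others past the limit. For the absent peaks the share was 63.7% (58 of 91, interval 53.5 to 72.9%) and for the present ones 74.7% (59 of 79, interval 64.1 to 83.0%). Of the ranked peaks, 7.01% were in repeated sequence on IV, the highest share, and 3.81% on X, the lowest, and of the genome's words 10.6% were repeated on IV and 5.75% on X. The number past the limit was 36 on IV and 30 on X.

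**Figure D5:**
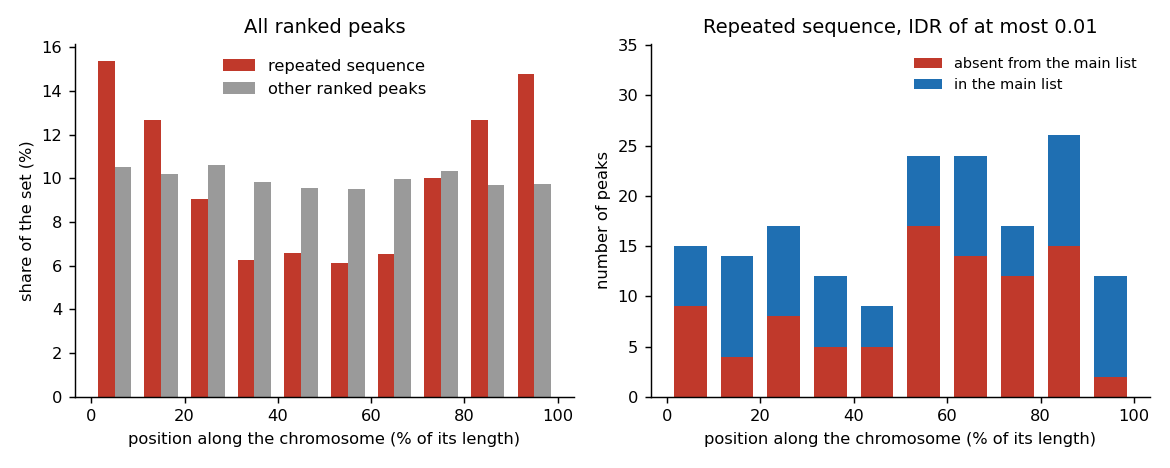
Position along the chromosome in 10 bins of equal length, all 6 chromosomes together. Left, the percentage of peaks in repeated sequence (red) and of other ranked peaks (grey) in each bin, with 15.4% of the red and 10.5% of the grey in the first. Right, the number of peaks in repeated sequence with a global IDR of at most 0.01, absent from the main list (red) or in it (blue), with the most, 26, between 80 and 90% of the length.

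The largest clusters of peaks in repeated sequence were mostly weak. Another such peak lay within 10 kb of 5338 of the 6145 (86.9%), which formed 1207 clusters. Ranked peaks are dense, and 99.99% of all of them had another ranked peak within 10 kb, so this share is a description and not a sign of clustering. The largest held 45 peaks over 66.2 kb near the left end of X, with a median signal of 18.2 and none past the IDR limit. Its strongest peak, chrX:75766-76029, had 51.7 in the joint list, 26.9 in replicate 1 and 27.0 in replicate 2, and lay near the pseudogene WBGene00022218. Of the 10 largest clusters, 7 had no peak past the limit. The strongest peaks of the 10, apart from chrX:293347 with 754, had signals of 37.6 to 121. They lay near the pseudogenes WBGene00021668 (chrI:243871-244134, 37.6), WBGene00011608 (chrX:169235-169498, 41.6) and WBGene00021885 (chrIV:2899675-2899938, 44.6), and near zip-11 (121). The others were near the tRNA gene WBGene00023194 (chrX:1762634-1762897, 67.4), the piRNA genes 21ur-5666 (chrIV:17140467-17140730, 56.4) and 21ur-9838 (chrIV:4319910-4320173, 69.0), and ZC190.10 (chrV:8701082-8701345, 89.0).

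Those past the IDR limit formed smaller clusters. Of the 170, 88 had another past the limit within 10 kb, in 33 clusters, and each cluster was wholly absent from the main list or wholly in it. By set, 72.5% of the absent peaks, 27.8% of the present ones and 24.0% of the others past the limit had another of their own kind within 10 kb. The largest held 7 peaks over 7.02 kb at chrI:10946035-10953051, with signals of 91.9 to 358, near the non-coding RNA gene Y95D11A.4. The cluster of 5 at chrII:8287624-8292677, on the 79-base unit shown above, had signals of 26.8 to 270, and its strongest peak was near nlp-55, a neuropeptide-like protein gene. The absent peaks lay away from the main list: their nearest thresholded peak was at a median distance of 73.8 kb, none was within 1 kb and 4 of 91 were within 10 kb (4.40%). Of the present peaks, 38.0% had another thresholded peak within 10 kb.

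Genes were scarcer at these peaks. The summit was inside an annotated gene for 55.5% of peaks in repeated sequence, against 72.4% of the other ranked peaks. For the peaks past the IDR limit the share was 24.1%, against 70.8% of the others past the limit, with 11.0% (10 of 91) of the absent and 39.2% (31 of 79) of the present ones. The absent peaks inside genes included chrX:15228120-15228383 in H03A11.2, with a signal of 106, and chrIV:7597246-7597509 in cla-1, which encodes an active zone protein of synapses, with 89.1. A gene start lay within 1 kb of the summit of 35.5% of peaks in repeated sequence, against 49.8% of the others, and of 15.4% of the absent peaks, against 38.0% of the present ones. The nearest start was that of a protein-coding gene for 62.7% of peaks in repeated sequence, against 68.3% of all ranked peaks, and of a pseudogene for 16.5%, against 5.60% of all ranked peaks.

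Genes in near-identical copies meet the definition of repeated sequence by their own sequence, so the counts by family describe the genome as much as these lists. Over all genes, 8.04% of those with a ranked peak within 1 kb of their start (2791 of 34724) had one in repeated sequence. The count was 8 of 10 ribosomal RNA genes, 10 of 24 spliced leader genes, 17 of 28 major sperm protein genes (msp), which encode the cytoskeletal protein of sperm, and 25 of 50 histone genes. It was 29 of 147 collagen (col) genes, 405 of 1826 pseudogenes, 47 of 590 tRNA genes, 32 of 273 F-box genes and 18 of 219 C-type lectin (clec) genes. It was 617 of 6759 piRNA genes, 14 of 231 nuclear hormone receptor genes, 4 of 78 ribosomal protein genes and 0 of 19 heat shock (hsp) genes. The peak at nhr-120 itself was not in repeated sequence, and unc-119 had no ranked peak within 1 kb. Reads that lie wholly in identical copies cannot be told apart. Peaks in which not every word is repeated also hold words with 1 copy, but how reads were placed is not stated. None of these peaks is therefore assigned here to a single copy.

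Of all 34724 genes with a ranked peak within 1 kb, 83 had one in repeated sequence past the IDR limit. These included 22 piRNA genes, of the 6759 with a ranked peak. They also included 4 ribosomal RNA genes, 3 spliced leader genes, 2 tRNA genes, 7 pseudogenes, msp-33, the collagen gene col-93 and the C-type lectin gene clec-80. The count was 0 for histone, F-box, nuclear hormone receptor, ribosomal protein and heat shock genes. From lists of this size, against 83 of 34724, nothing is read from a 0. These are counts of genes and not of peaks, since a single peak can lie within 1 kb of several starts. The peak at chrIV:13361367-13361630 counted for both 21ur-8623 and 21ur-14983. A piRNA start was the nearest for 6 peaks in repeated sequence past the limit, against the 22 piRNA genes counted. The peak at col-93 had a joint signal of 71.6, with 39.2 in replicate 1 and 29.1 in replicate 2, and was in the main list. The peak at clec-80 had 78.5, with 49.1 in replicate 1 and 31.96 in replicate 2, and was absent from it. The strongest peak at a histone gene, at his-61 and his-62, had a joint signal of 53.1, with 36.5 in replicate 1 and 21.3 in replicate 2. The peak at msp-33 had 84.5, with 31.0 in replicate 1 and 49.5 in replicate 2, passed the limit and was in the main list. The ribosomal RNA genes rrn-4.2 and the spliced leader genes sls-1.10, known in the worm to sit together in a tandem array, had peaks past the limit that were absent from the main list. At chrV:17122042-17122305 the joint signal was 95.9, with 69.9 in replicate 1 and 27.4 in replicate 2, and at chrV:17128034-17128297 it was 99.6, with 42.0 in replicate 1 and 57.0 in replicate 2. At chrV:17122928-17123191 it was 76.4, with 69.1 in replicate 1 and no peak in the own list of replicate 2. Several gene models there carry the same symbol.

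The base composition of the peaks gave a small difference. The median GC content was 40.2% in repeated sequence, against 38.3% in the other ranked peaks, and among those past the IDR limit it was 42.0% for the absent peaks and 45.5% for the present ones. The 6 peaks absent from the main list outside repeated sequence had repeated shares of 0 to 44.7% and signals of 71.0 to 178. The strongest of them, chrII:2570710-2570973 inside usp-39, had 43.8% of its words repeated, all with a copy within 10 kb, and so lay near the limit of the definition. One, chrIV:2821916-2822179 inside Y54G2A.37, had no repeated word, with a signal of 91.0. The thresholded lists were made with 1 input more than the ranked lists, per the deposited file descriptions, and the role of that input is not stated. The cause of the absence was not tested.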

How the data were processed

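The series holds 8 peak lists made by the authors, 4 ranked and 4 thresholded, from 2 replicates of 1 group. Each peak has a deposited signal value, a deposited score, a deposited −log10 q value and, in the ranked lists, a deposited −log10 of the global IDR. Signal and IDR were used, and the score and q value were not. No source used here names the aligner or the peak caller, or states whether the possible control that the labels name served as control. In the joint ranked lists 16 further columns of paired values carry no sample names and were not used. Words of 30 bases were counted on both strands of the RefSeq WBcel235 genome (ce11, the assembly the file descriptions name), and the counting was tested on simulated sequence. Peaks overlapped when they shared at least 1 bp. Gene models were from Ensembl release 115, with missing symbols from RefSeq by WormBase identifier. Python 3.11.15, numpy 2.4.6, pandas 2.3.3 and scipy 1.17.1 were used. Shares have 95% Wilson intervals, which cover counting error only. The lists give no counts, so depth is unknown.

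The definition of the peaks, the gene lists and the rule for named peaks were chosen with earlier results of these data known. Named were every absent peak above the maximum of the main list, the 15 strongest, the strongest of the 10 largest clusters, the 10 strongest in the main list and 2 on each side of the 50% limit. The other peaks named, among them those inside genes, at gene families or outside repeated sequence, were chosen after their values were seen.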

Additional observations from a re-analysis of the deposited data

How the results depend on the processing

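The 12 absent peaks above the maximum of the main list were 12 with a repeated share of at least 25%, words of 20 bases, an overlap of at least 50% of the peak or the other joint ranked list, 11 with words of 50 bases and 8 with a share of at least 90%. The counts scale with the definition. With a repeated share of at least 25% there were 11197 peaks, with a median signal of 22.2, 156 that overlapped the main list, 10386 with another within 10 kb, 81.9% on the arms and 7119 nearest to a protein-coding start. With at least 90% these were 938, 17.2, 11, 537, 76.0% and 591, and 59 passed the IDR limit. With words of 20 bases there were 9456 peaks, with a median of 21.8, 8643 with another within 10 kb, 82.8% on the arms and 6086 nearest to a protein-coding start. With words of 50 bases these were 3559, 18.3, 2798, 77.9% and 2209, and 112 passed the IDR limit and 37 overlapped the main list. At an IDR of at most 0.001, 71 passed. The share of all ranked peaks at this stricter limit is not given here, so no excess is read from that count. With arms as the outer 25% at each end, 66.2% were on them. In all, 22 values, among them those under the other joint ranked list, stayed within 1.5 times for a count or within the 95% interval of the main value for a median signal or a share on the arms, and 39 did not.

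Without 1 replicate, the own lists gave 2649 to 2736 peaks, a median signal of 17.0 to 18.1, 69 to 72 past the IDR limit, 11 to 21 in the replicate's own thresholded list, 1779 to 1880 with another within 10 kb, 78.9 to 80.1% on the arms and 1663 to 1721 nearest to a protein-coding start. These lists hold fewer peaks, so counts fall by construction. No paired analysis was possible because the series has 1 group. Limits: no control was analysed, depth is unknown, neighbouring peaks are not independent, and from these lists a signal in repeated words cannot be assigned to a copy.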
